A study of Mus musculus with 4 samples.

Results

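TAM_H2Ab1 is the class of tumour-associated macrophages that the authors' annotation names after the MHC class II gene H2-Ab1. It was taken as every cell with that name in the deposited cell table, which gave 864 of the 34447 cells in the table. All cells were sorted as CD45+ and came from tumours of YUMM1.7-OVA RTT, a mouse melanoma line with mutant Braf that expresses ovalbumin, became resistant to a BRAF inhibitor and was kept in dabrafenib. Tumours grew in adult, age-matched Rag2-/- mice, which have no T or B cells of their own, and all mice received OT-1 T cells specific for ovalbumin (adoptive transfer, ACT) on day 7. Tumours were collected on day 10, 72 h after ACT, and 3 tumours were pooled for each library before the sort. In CTRL the tumour cells carried an empty vector with mCherry and puromycin resistance. In IRF3/7 the tumour cells, not the immune cells, carried cDNAs of IRF3 and IRF7 on separate vectors under the SFFV promoter, and the line was selected with puromycin and sorted in bulk, so it was not 1 clone. COX2i mice bore mCherry tumours and were given celecoxib, a COX2 inhibitor, by daily oral gavage. COX2i + 5-AZA mice were given celecoxib and intraperitoneal injections of 5-azacytidine, an inhibitor of DNA methyltransferases. Each group had 1 library, so no difference here has a replicate check. Intervals in parentheses are exact 95% intervals and cover counting error only.

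Macrophages in tumours arise largely from blood monocytes, and as they mature they lose monocyte genes such as Chil3 and Plac8 and acquire those of complement C1q, lipid handling and the lysosome. MHC class II molecules carry peptides from engulfed material to CD4+ T cells, and macrophages raise them mainly in response to interferon-γ through the transactivator CIITA. Type I interferon acts on a partly different set of genes, which includes Isg15 and the Ifit family. Macrophages that carry much MHC class II are often set apart in tumours from those that express Mrc1.

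The promoters of genes that stand for these programmes are shown first, for reference beside their values below. The sequences are RefSeq windows of 300 bases in GRCm38.p6, from upstream of the transcription start to just inside the gene and in the direction of the gene. In the first pair, capitals mark CTGATTGG, the Y box of the MHC class II promoter. In the next pair, capitals mark GAAANNGAAA, the core of the interferon-stimulated response element. The window of Fcrl5, the most uneven marker between libraries, holds neither and has no capitals.
H2-Aa: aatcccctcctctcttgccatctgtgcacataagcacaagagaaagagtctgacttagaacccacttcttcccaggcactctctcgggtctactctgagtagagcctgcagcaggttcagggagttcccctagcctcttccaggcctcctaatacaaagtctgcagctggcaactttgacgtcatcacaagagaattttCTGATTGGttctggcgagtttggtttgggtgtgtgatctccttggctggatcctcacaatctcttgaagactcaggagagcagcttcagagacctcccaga
H2-Eb1: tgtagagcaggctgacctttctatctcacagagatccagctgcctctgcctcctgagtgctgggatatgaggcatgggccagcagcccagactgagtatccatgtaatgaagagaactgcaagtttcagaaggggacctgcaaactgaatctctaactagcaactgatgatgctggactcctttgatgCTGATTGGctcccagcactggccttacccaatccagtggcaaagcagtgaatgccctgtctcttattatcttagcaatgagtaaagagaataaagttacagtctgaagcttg
Isg15: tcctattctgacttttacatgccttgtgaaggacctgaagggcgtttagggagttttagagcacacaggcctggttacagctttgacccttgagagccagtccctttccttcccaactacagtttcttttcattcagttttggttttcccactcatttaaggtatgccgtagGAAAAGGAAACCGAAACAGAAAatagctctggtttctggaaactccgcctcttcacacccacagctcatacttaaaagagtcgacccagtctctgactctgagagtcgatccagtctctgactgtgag
Gbp2: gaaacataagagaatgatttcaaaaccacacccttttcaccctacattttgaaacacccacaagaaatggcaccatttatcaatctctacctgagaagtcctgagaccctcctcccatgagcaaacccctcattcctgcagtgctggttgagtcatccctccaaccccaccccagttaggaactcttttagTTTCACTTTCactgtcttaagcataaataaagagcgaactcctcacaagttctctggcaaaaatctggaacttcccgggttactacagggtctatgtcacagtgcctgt
Fcrl5: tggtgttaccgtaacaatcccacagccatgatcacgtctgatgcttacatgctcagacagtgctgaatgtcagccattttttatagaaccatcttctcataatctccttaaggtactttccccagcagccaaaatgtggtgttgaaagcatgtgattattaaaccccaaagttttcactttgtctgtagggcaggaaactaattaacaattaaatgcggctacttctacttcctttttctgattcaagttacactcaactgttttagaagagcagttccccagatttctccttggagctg

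The H2-Aa window lies at chr17:34287774-34288073 on the minus strand and the H2-Eb1 window at chr17:34305617-34305916 on the plus strand. The Isg15 window lies at chr4:156200769-156201068 (minus strand) and holds 3 overlapping matches. The Gbp2 window lies at chr3:142620413-142620712 (plus strand) with its match on the reverse strand, and the Fcrl5 window at chr3:87435532-87435831 (plus strand). With both strands searched, the Y box was in 4.70% of the 27025 genes with a window and the response element in 3.99%. Of the MHC class II genes listed here, 4 of 10 with a window held the Y box, namely H2-Aa, H2-Eb1, H2-Eb2 and H2-Oa, and so did 7 of 14 MHC class I genes. Among the genes of the deposited table the Y box was in 6.37% and the response element in 3.95%. Of the genes skewed to type I interferon, 7 of 13 held the response element, and so did 7 of the 11 skewed to interferon-γ. None of the 4 class markers with a window held it. A match describes letters and is no sign of binding.

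The class was very unevenly spread over the libraries. It held 19 of 8953 cells in CTRL, 385 of 6329 in IRF3/7, 41 of 9133 in COX2i and 419 of 10032 in COX2i + 5-AZA. As shares these were 0.212% (0.128 to 0.331), 6.08% (5.51 to 6.70), 0.449% (0.322 to 0.609) and 4.18% (3.79 to 4.59). The share was 28.7 times as high in IRF3/7 as in CTRL (18.1 to 48.1) and 9.30 times as high in COX2i + 5-AZA as in COX2i (6.74 to 13.2). Between the libraries with most cells of the class, the share in IRF3/7 was 1.46 times that of COX2i + 5-AZA (1.26 to 1.68). Among cells with more than 2000 detected genes these ratios were 63.8 for IRF3/7 over CTRL (38.4 to 113) and 2.62 for IRF3/7 over COX2i + 5-AZA (2.22 to 3.09). Of the monocytes and macrophages together, the class made up 0.250% in CTRL, 7.65% in IRF3/7, 0.556% in COX2i and 4.76% in COX2i + 5-AZA. The classes were clusters made from the same genes that are described here, so a difference between classes is a description of the clusters and not a test.

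**Figure D1:**
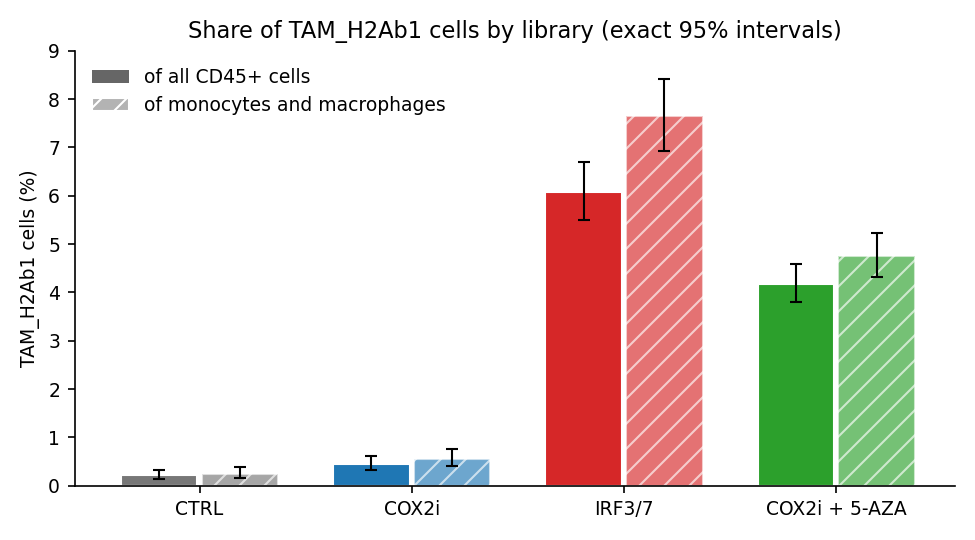
Bars give the TAM_H2Ab1 share (%) of all CD45+ cells (filled) and of monocytes and macrophages (hatched) in each library, and lines give exact 95% intervals. IRF3/7 stood highest at 6.08% of all cells, followed by COX2i + 5-AZA at 4.18%, with CTRL and COX2i under 0.5% on the filled bars.

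The libraries held 26356819 (IRF3/7) to 78722763 (COX2i) UMIs, and median UMIs per cell ran from 3168 in IRF3/7 to 7502 in COX2i. Within the class the median was 4634 UMIs in IRF3/7 and 9514 in COX2i + 5-AZA. The class summed to 119538, 2023164, 274146 and 4343220 UMIs in CTRL, IRF3/7, COX2i and COX2i + 5-AZA. Levels below are the UMIs of a gene over such a sum, scaled to CPM, and 3 UMIs are 25.1, 1.48, 10.9 and 0.691 CPM in that order. Droplet barcodes that another library also used were found in 31.0% of TAM_H2Ab1 cells and 29.1% of all cells, and the libraries were told apart by a separate probe barcode. When each cell was placed by the likelihood of its counts under the class profiles of its own library, 94.3% of the class in IRF3/7 and 85.4% in COX2i + 5-AZA returned to it. In CTRL 9 of 19 cells returned and in COX2i 18 of 41, so the levels of those libraries are given as values only and rest on few cells. The same placement moved 335 Infl_Mono cells of IRF3/7 and 232 Monocyte_1 cells of COX2i + 5-AZA into the class.

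Of the 7 genes fixed as markers of the class, most were read in the class in every library, and Fcrl5 and Lipg almost only in IRF3/7. Ccl8 encodes a chemokine for monocytes. Its level was 1874 CPM in CTRL, 296 in IRF3/7, 208 in COX2i and 694 in COX2i + 5-AZA, with wide intervals in CTRL (1637 to 2136) and COX2i (157 to 269). The CTRL value, the highest, came from 224 UMIs in 5 of 19 cells, and its interval does not cover the spread between cells. In other classes of IRF3/7 it stood at 16.8 CPM in Infl_Mono and 21.2 in Monocyte_1, but Macro of COX2i + 5-AZA was above the class, at 1443 CPM. Cd72 encodes a lectin-like receptor best known from B cells. It was at 452 CPM in CTRL, 2611 in IRF3/7, 398 in COX2i and 656 in COX2i + 5-AZA, above NK cells of the same libraries (165 in IRF3/7 and 127 in COX2i + 5-AZA).

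Fcrl5, which encodes an Fc receptor-like protein best known from B cells, was at 8.37 CPM in CTRL, 294 in IRF3/7, 0 in COX2i and 0.460 in COX2i + 5-AZA. The CTRL value was 1 UMI and the COX2i + 5-AZA value 2 UMIs, and 0 UMIs in COX2i allow up to 10.9 CPM. It was thus high in the IRF3/7 cells, and there it stood at 3.39 CPM in Infl_Mono, 6.10 in cDC2 and 0 in Monocyte_1. Lipg, which encodes endothelial lipase, was at 8.37 CPM in CTRL, 374 in IRF3/7, 0 in COX2i and 0.691 in COX2i + 5-AZA (1 UMI in CTRL and 3 in COX2i + 5-AZA), so it too was high in the IRF3/7 cells. Other classes of IRF3/7 carried Lipg too, at 81.6 CPM in cDC2 and 42.8 in Infl_Mono.

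Dnase1l3, which encodes a secreted nuclease that digests the DNA of dead cells, was at 176 CPM in CTRL, 198 in IRF3/7, 139 in COX2i and 709 in COX2i + 5-AZA, highest in COX2i + 5-AZA. Nr1h3 encodes the sterol sensor LXRα. Its level was 25.1 CPM in CTRL, 189 in IRF3/7, 36.5 in COX2i and 83.3 in COX2i + 5-AZA, and the CTRL value had a wide interval (5.18 to 73.3). H2-Ab1, the β chain of the MHC class II molecule I-A and the gene in the class name, was at 3480.1 CPM in CTRL, 3251 in IRF3/7, 3122 in COX2i and 4199 in COX2i + 5-AZA, the most even of the 7. In GRCm38 annotation Fcrl5 (ENSMUSG00000048031) spans chr3:87435773-87500678 on the plus strand, Cd72 chr4:43446462-43454628 on the minus strand, Ccl8 chr11:82115185-82116799 on the plus strand and H2-Ab1 chr17:34257689-34269419 on the plus strand. The count is per gene, so no exon is told apart.

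**Figure D2:**
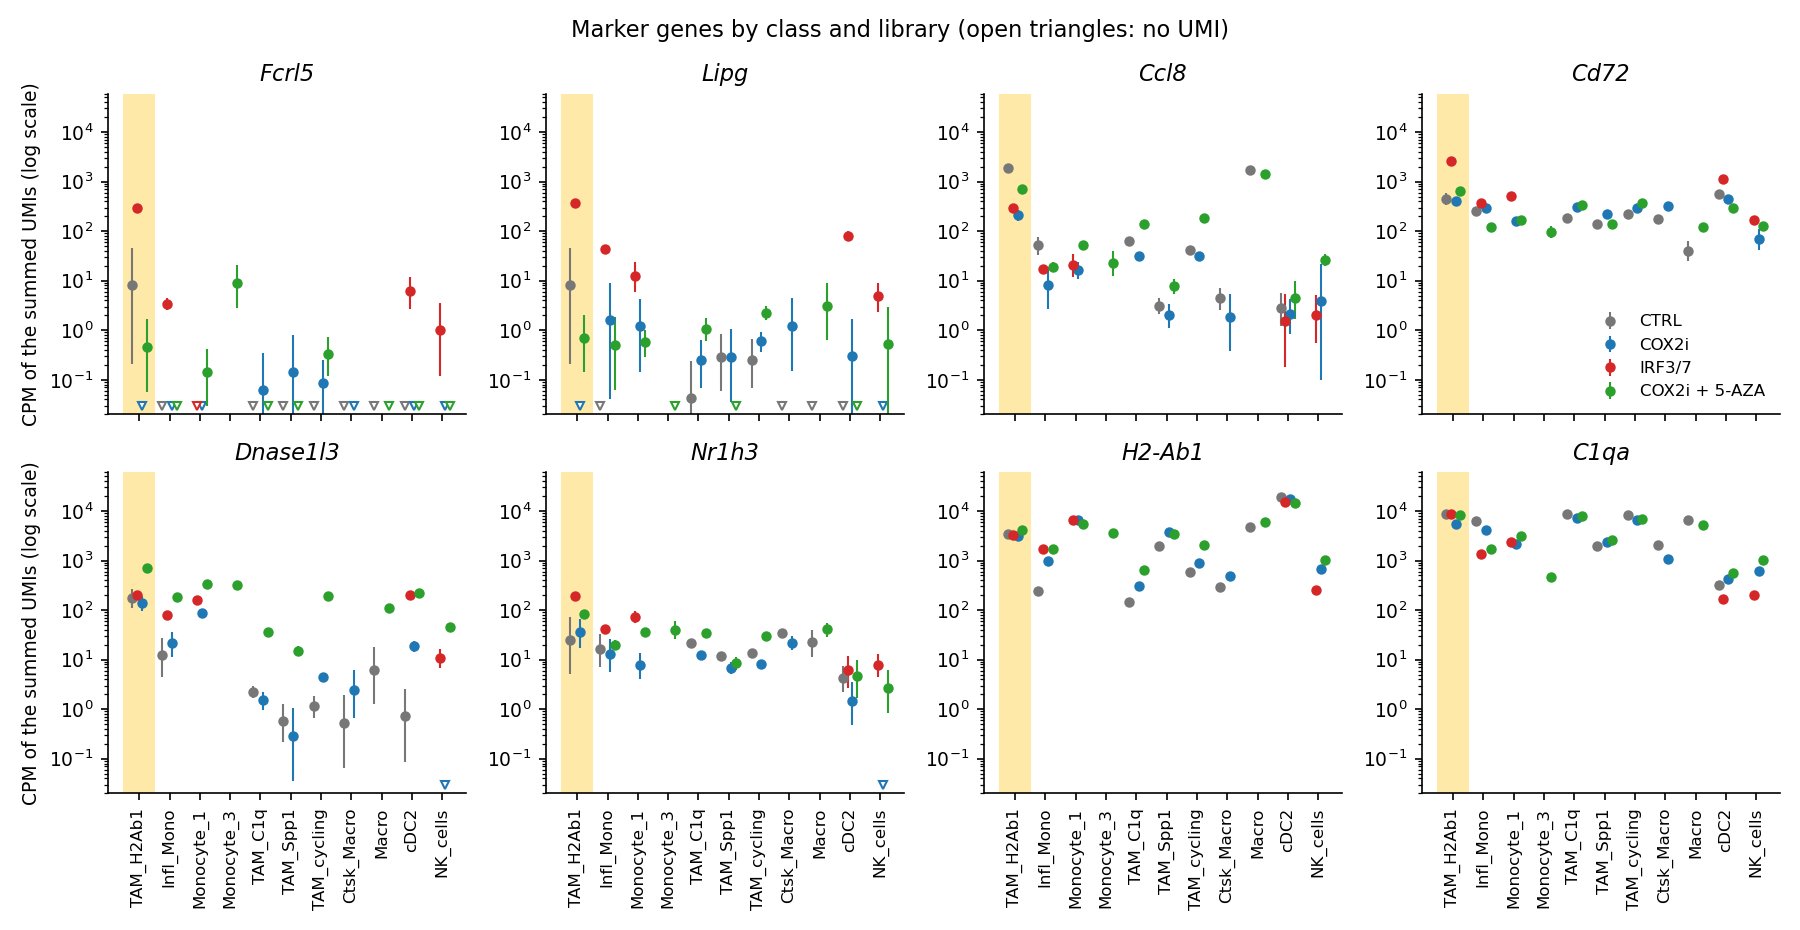
Each panel shows 1 gene, with classes along the x axis (TAM_H2Ab1 shaded) and CPM on a log y axis, coloured by library, with exact 95% intervals. In the class Fcrl5 and Lipg stood at 294 and 374 CPM in IRF3/7 and under 1 CPM in COX2i + 5-AZA, whereas C1qa lay between 5489.8 and 8707 CPM in all 4 libraries.

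The name "MHC-II high" held against some neighbours and not against others. In IRF3/7, H2-Ab1 was at 3251 CPM in the class, above Infl_Mono (1729) but below Monocyte_1 (6619.9) and cDC2 (15243). In COX2i + 5-AZA it was at 4199 CPM, above TAM_Spp1 (3493), TAM_cycling (2017) and TAM_C1q (659), and below Monocyte_1 (5568), Macro (5977) and cDC2 (14657). NK cells, which should lack it, read 252 CPM in IRF3/7 and 1029.9 CPM in COX2i + 5-AZA, so the background read in cells that lack the gene was higher in the latter, and the TAM_C1q value was under it. In each library the class combined a high level of C1q with a high level of MHC class II. The summed level of C1qa, C1qb and C1qc, the subunits of the first complement component, was 17434, 17856, 12803 and 17842 CPM in CTRL, IRF3/7, COX2i and COX2i + 5-AZA. The summed level of H2-Aa, H2-Ab1, H2-Eb1 and Cd74 was 19877, 18765, 22422 and 25570.0 CPM.

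In the same terms TAM_C1q of COX2i + 5-AZA had as much C1q (16646 CPM) with 4477 CPM of MHC class II, and Monocyte_1 had less C1q (7269 CPM) with 32763 CPM. Infl_Mono of IRF3/7 was lower on both, at 3476 and 10269.5 CPM. Macro was high on both, at 13796 and 31052 CPM in CTRL (73 cells) and at 11919 and 34783 CPM in COX2i + 5-AZA, so the pair was not confined to TAM_H2Ab1. NK cells read 485 and 1522 CPM in IRF3/7 and 2325 and 6414 CPM in COX2i + 5-AZA, so the MHC class II sum of TAM_C1q there was below that of NK cells. Over all genes compared, the IRF3/7 cells differed least from Monocyte_1, with a median absolute log2 ratio of 0.33 against 0.45 for Infl_Mono and 0.47 for cDC2. The COX2i + 5-AZA cells differed least from TAM_C1q (0.20) and Monocyte_1 (0.22), followed by Macro and TAM_cycling (both 0.28), TAM_Spp1 (0.33) and Infl_Mono (0.38). Between both libraries the class itself differed by 0.33.

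**Figure D3:**
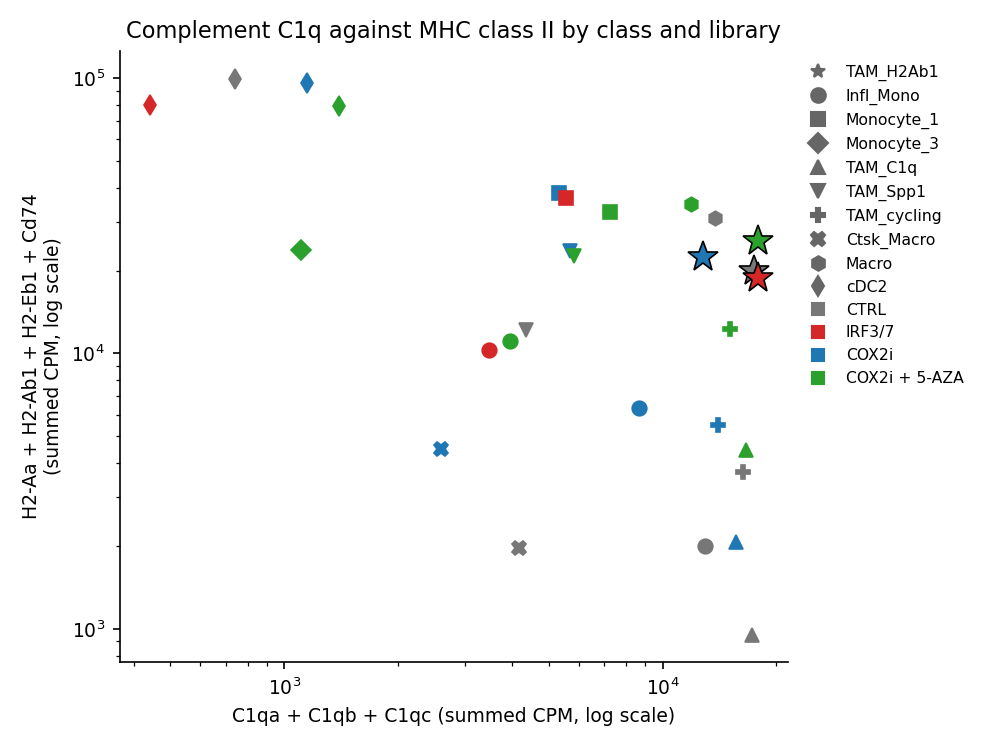
The x axis is the summed CPM of C1qa, C1qb and C1qc and the y axis that of H2-Aa, H2-Ab1, H2-Eb1 and Cd74, both on log scales, with 1 symbol per class (stars for TAM_H2Ab1) coloured by library. All 4 stars sat at 12803 CPM of C1q or more with at least 18765 CPM of MHC class II, while TAM_C1q lay below them and Monocyte_1 to their left. Macro of CTRL (13796 and 31052 CPM) lay within the same limits.

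In IRF3/7 tumours the question was how the class differed from Infl_Mono, the inflammatory monocytes that made up 4335 of the 6329 cells. TAM_H2Ab1 cells carried more of the genes of tissue macrophages, complement and cell division, and of some lipid genes. They carried less of the genes of monocytes, neutrophils and type I interferon. Among 4373 genes with enough UMIs, 406 were at least 2-fold higher in TAM_H2Ab1 (9.28%) and 384 at least 2-fold lower (8.78%), with a median log2 ratio of 0.13. Scaled by median-of-ratios size factors, which shifted the ratios by 0.22, the split was 250 higher and 515 lower.

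The largest ratio was that of Fcrl5, at 294 against 3.39 CPM, a log2 ratio of 6.44 (6.02 to 6.88). Cadm1, which encodes an adhesion molecule, was at 117 against 2.58 CPM (5.50, 5.00 to 6.03), and Cd300e, which encodes an activating receptor of monocytes, at 739 against 31.2 CPM (4.56, 4.41 to 4.72). Clec4b1, Fcrls and Ccl8 were also among the 10 largest, with log2 ratios of 5.09, 4.37 and 4.13. The other 4 were genes of DNA replication and mitosis, Top2a (4.54), Uhrf1 (4.51), Cdk1 (4.15) and Mcm2 (4.12). Mki67, a marker of dividing cells, stood at 94.9 against 6.11 CPM (3.96, 3.59 to 4.33). A gene was compared where either class reached 50 CPM, and 11 of the 12 cell cycle genes compared did so in TAM_H2Ab1 only, so a count over those 12 was partly set by the filter. With no filter, 17 of 18 cell cycle genes in the table were at least 2-fold higher and none lower, against 20.7% and 7.60% of all genes with a UMI in both classes.

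Macrophage identity genes were higher in 10 of 18 compared and lower in none (median 1.21). Among them Ms4a7 was at 2587 against 371 CPM and Cd81, a tetraspanin, at 356 against 20.6 CPM, while Apoe, the lipid carrier apolipoprotein E, was at 19214 against 5786 CPM (1.73, 1.71 to 1.75). Complement genes were higher in 5 of 11 (median 0.83), with C1qa at 8707 against 1364 CPM (2.67, 2.64 to 2.70). LXR targets and lipid genes, a list that holds the class marker Nr1h3, were higher in 7 of 16 and lower in 1 (median 0.25). Of the 16, 3 reached 50 CPM in TAM_H2Ab1 only. With no filter, 8 of 24 were at least 2-fold higher and 3 lower, against 20.7% and 7.60% of all genes with a UMI in both. Pltp, which encodes a phospholipid transfer protein, was at 1295 against 80.5 CPM (4.01, 3.91 to 4.11), Pparg, a fatty acid-sensing nuclear receptor, at 99.8 against 11.1 CPM and Abcg1, a cholesterol exporter, had a log2 ratio of 1.31. Lysosomal genes were higher in 5 of 20 (median 0.46).

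Of the MHC class II list, 1 of 9 genes was past 2-fold, H2-Eb1 at 4275 against 1777 CPM (1.27, 1.23 to 1.30), and the median was 0.55. H2-Ab1 itself had a log2 ratio of 0.91 (0.87 to 0.95), under 2-fold. Ciita (0.05) and H2-DMa (-0.04), which loads peptides, were near equal in both classes. No MHC class I gene of 16 was past 2-fold (median -0.03).

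By the same count with no filter, 13 of 16 monocyte genes were at least 2-fold lower and 1 higher. Chil3, a chitinase-like protein of classical monocytes, was at 185 against 5112 CPM (-4.79, -4.94 to -4.64). Fn1 (fibronectin) stood at 29.7 against 951 CPM and Thbs1 (thrombospondin) at -3.92 on the log2 scale. The exception in the other direction was Spn (2.10), a sialoprotein of patrolling monocytes. Of 9 neutrophil genes 7 were lower by that count, among them S100a8 (-4.37) and Lcn2 (-5.12). Pi16 was read in 1 UMI of the class, a log2 ratio of -6.82 (-12.13 to -4.34).

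The genes skewed to type I interferon were lower in 7 of 16 and higher in none (median -0.77). Isg15, a ubiquitin-like protein, was at 2513 against 5545 CPM (-1.14, -1.18 to -1.10), and Slfn4 at 1526 against 4185 CPM. Of 17 genes skewed to interferon-γ 3 were lower and 1 higher (median -0.54), and Nos2, the inducible nitric oxide synthase, was at 13.8 against 127 CPM. Chemokine genes went both ways, with 6 of 14 higher and 2 lower. With no filter, 7 of 18 were at least 2-fold higher and 5 lower, against 20.7% and 7.60% of all genes with a UMI in both. Ccl7 was at 2.17 and Ccl12 at 1.02 on the log2 scale, whereas Cxcl2, which attracts neutrophils, was at -3.03 and Cxcl10, which attracts T cells, at -1.19. With no filter, 11 of 21 genes linked to suppressive macrophages were at least 2-fold higher and 6 lower, with Mrc1 (2.20) and Il10 (1.75) higher and Ptgs2 (-2.47) and Vegfa (-2.24) lower. The study's own 20 leading genes of the class, chosen on data that included these libraries and so not independent evidence, were higher in 6 of 20 (median 0.72).

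Receptors best known from B cells and other blood cells were read in these cells, so the lists of other cell types were summed over the class. The B cell list came to 218 CPM in IRF3/7, mostly from Ighm (151 CPM) and Cd79b, while Cd79a was at 0 in each library and Ms4a1 and Jchain under 1 CPM. With each cell thinned to 2000 UMIs, Ighm was read in 15.1% of the class there, 13.9% of NK cells, 14.0% of cDC2, 7.04% of Infl_Mono and 2.15% of Monocyte_1, so its share was close to that of some cells that should lack it and above that of others. Cd79b, a signalling subunit of the B cell receptor, was read in 11.8% of the class and 0.489% of NK cells (median depths before thinning 4634 and 2674.5 UMIs). In the class against Infl_Mono it was at 65.7 against 4.21 CPM (3.97, 3.52 to 4.42). The NK and T cell list came to between 0 and 49.4 CPM over the 4 libraries, against 39982 CPM in NK cells of IRF3/7. The mast cell list came to at most 9.44 CPM, and the plasmacytoid dendritic cell list had its defining genes Siglech and Ccr9 at 0 in each library. The dendritic cell list came to between 638 and 1144 CPM, with the defining genes Flt3 and Cd209a at 1 UMI or none in each library. Other members did not follow these. Against Infl_Mono of IRF3/7, 6 of 14 with a UMI in both were at least 2-fold higher and 1 lower, against 20.7% and 7.60% of all genes. The neutrophil list came to between 251 and 667 CPM, the tumour and stroma list to between 283 and 468 CPM, and the monocyte list to 4158 CPM in IRF3/7, against 26941 CPM in Infl_Mono there.

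In COX2i + 5-AZA the class was set against Monocyte_1, the largest class there with 3640 cells. It had more of the genes of tissue macrophages and less of those of monocytes, and both classes carried MHC class II. Of 4362 genes, 124 were at least 2-fold higher (2.84%) and 164 at least 2-fold lower (3.76%), with a median log2 ratio of 0.03. Gas6, a bridge to dying cells for the receptor MERTK, was at 157 against 7.11 CPM (4.46, 4.21 to 4.73) and Ctsk, the collagen-degrading cathepsin K, at 165 against 8.53 CPM (4.28, 4.04 to 4.52). Folr2, the folate receptor of tissue macrophages, was at 359 against 22.5 CPM, and Vcam1, an adhesion molecule, at 288 against 26.5 CPM. Macrophage identity genes were higher in 9 of 19 and lower in none (median 0.85), with Cd63 at 2.84 and Ms4a7 at 2.85 on the log2 scale. With no filter on low values, 12 of 23 genes linked to suppressive macrophages were at least 2-fold higher and 6 lower, against 10.5% and 4.88% of all genes with a UMI in both classes.

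By that count 11 of 16 monocyte genes were lower and none higher, with Chil3 at 84.0 against 1031 CPM and Plac8 at 364 against 2859 CPM. Of 9 neutrophil genes 8 were lower. The lowest ratios were those of Inhba, a subunit of activin A (-4.66, -5.35 to -4.04), and the integrin gene Itga1 (-4.11, -4.99 to -3.36). None of the 9 MHC class II genes was past 2-fold (median -0.29), H2-Ab1 had a log2 ratio of -0.41 (-0.43 to -0.38) and Ciita -0.34. Type I-skewed genes were higher in 3 of 16 (median 0.47), Ifit3 among them at 192 against 83.3 CPM, and interferon-γ-skewed genes higher in 1 and lower in 1 of 17 (median -0.16).

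Several ratios to Monocyte_1 were close in both libraries, although IRF3/7 held 251 Monocyte_1 cells only. In IRF3/7 and COX2i + 5-AZA in turn, the log2 ratio was 3.80 and 3.72 for Ccl8 and 2.33 and 1.99 for Cd72. For the macrophage genes Folr2 and Ctsk it was 3.67 and 4.00, and 3.78 and 4.28. Pltp was at 3.03 and 2.69. Those of H2-Ab1 were -1.03 and -0.41. Chil3 was further from Monocyte_1 in COX2i + 5-AZA (-3.62) than in IRF3/7 (-1.05).

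The comparison with TAM_C1q, the C1q macrophages that held 1379 cells of COX2i + 5-AZA and 3199 of CTRL, asked what else marked the class among macrophages. Most interferon and MHC class II genes compared were past 2-fold higher in TAM_H2Ab1, while C1q and the macrophage identity genes were near the same level in both. Of 4472 genes, 166 were at least 2-fold higher (3.71%) and 103 at least 2-fold lower (2.30%), with a median log2 ratio of -0.07. Type I-skewed genes were higher in 15 of 16 (median 2.43) and interferon-γ-skewed genes in 15 of 17 (median 1.92), none of either lower. Gbp2b, a guanylate-binding protein, was at 398 against 13.1 CPM (4.93, 4.71 to 5.16), Cxcl9, a chemokine for activated T cells, at 1073 against 113 CPM (3.24, 3.16 to 3.32) and Isg15 at 785 against 146 CPM (2.43, 2.35 to 2.51). Serpina3g (3.86), Ifit2 (3.54) and Cmpk2 (3.48) were also among the 10 largest.

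MHC class II genes were higher in 6 of 9 (median 2.30). H2-Eb1 was at 4772 against 634 CPM and Ciita at 201 against 23.3 CPM (3.11, 2.92 to 3.30). TAM_C1q stood under the NK level of H2-Ab1, so its own level cannot be told apart from free RNA. MHC class I genes were higher in 9 of 15 (median 1.03). Dnase1l3 was at 709 against 35.7 CPM (4.31, 4.17 to 4.45) and Ctsk again high (4.37). C1qa was near equal in both (0.08, 0.06 to 0.10), and of 19 macrophage identity genes none was higher and 1 lower (median -0.26).

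With no filter, 9 of 23 genes linked to suppressive macrophages were at least 2-fold lower than in TAM_C1q and 3 higher, against 5.92% and 5.50% of all genes with a UMI in both. The mannose receptor gene Mrc1 was at 1120.1 against 3334 CPM (-1.57, -1.62 to -1.53). F13a1, a clotting factor subunit, was at 242 against 1366 CPM and Fcrls at 422 against 2291 CPM. The chemokine Pf4 had a log2 ratio of -1.92. Chemokine genes as a list went both ways, with 4 of 16 higher and 3 lower.

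A stricter question was whether any gene was at least 2-fold above every other monocyte or macrophage class with 50 cells or more in its library. In COX2i + 5-AZA, with 7 such classes, it held for 6 of 5558 genes (0.108%). They were Ctsk (165 against 38.8 CPM), Tlr12, an endosomal receptor (200.1 against 73.7 CPM), Vcam1 (288 against 123 CPM), the gelatinase gene Mmp9 (58.0 against 27.0 CPM), Dnase1l3 (709 against 333 CPM) and Nr1h3 (83.3 against 40.8 CPM), each against its highest other class. TAM_cycling was that class for Ctsk, Tlr12 and Mmp9, TAM_C1q for Vcam1, Monocyte_1 for Dnase1l3 and Macro for Nr1h3. The limit of 50 cells left out Ctsk_Macro, the class named after Ctsk, with 37 cells here, in which Ctsk stood at 27454 CPM in CTRL and 22053 CPM in COX2i. None of 9 MHC class II genes and none of 19 macrophage identity genes was among them. In IRF3/7, with Infl_Mono and Monocyte_1 only, it held for 214 of 4497 genes (4.76%). There 8 of 18 identity genes and none of 16 type I-skewed genes passed. Both counts of genes include markers that were fixed for this class. These were Dnase1l3 and Nr1h3 in COX2i + 5-AZA, and Fcrl5 and Ccl8 among others in IRF3/7. The IRF3/7 count also includes cell cycle genes. Neither list is read as a result here. The limit of 50 cells also left out TAM_cycling of IRF3/7, with 20 cells. Of the 12 cell cycle genes compared with Infl_Mono, 11 were above 50 CPM in TAM_H2Ab1 only. To match that choice of classes, the COX2i + 5-AZA cells were also set against Infl_Mono and Monocyte_1 alone, and 107 of 4528 genes passed (2.36%).

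The class was next compared between IRF3/7 and COX2i + 5-AZA, the libraries with 385 and 419 of its cells. The IRF3/7 cells carried more of the type I interferon and cell cycle genes and of Fcrl5, Lipg and Cd300e, and less of Mgl2, Ccl24 and Mmp12, genes of alternatively activated and tissue-remodelling macrophages. Of 4473 genes, 245 were at least 2-fold higher in IRF3/7 (5.48%) and 238 at least 2-fold lower (5.32%), with a median log2 ratio of -0.06. The IRF3/7 cells were shallower, and the libraries also differed in tumour cells and drugs, which cannot be told apart from the library itself.

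Fcrl5 led, at 294 against 0.460 CPM (595 against 2 UMIs), with a log2 ratio of 9.32 (7.46 to 12.37). Lipg followed at 374 against 0.691 CPM (9.08, 7.53 to 11.36) and Cd300e at 739 against 13.4 CPM (5.79, 5.41 to 6.19). Kdr, the receptor of vascular endothelial growth factor, was at 5.33 on the log2 scale, Il1rl1, the receptor of interleukin-33, at 4.53 and Cd79b at 4.57. In the other direction, Mgl2, a galactose-binding lectin, was read in 1 UMI against 709 (-8.37, -13.67 to -5.88) and Ccl24, a chemokine for eosinophils, in 1 against 349 (-7.34, -12.65 to -4.86). The elastase gene Mmp12 was at 3.46 against 314 CPM (-6.50, -7.82 to -5.46) and Fn1 at 29.7 against 310.4 CPM. With no filter, 10 of 22 genes linked to suppressive macrophages were at least 2-fold lower in IRF3/7 and 2 higher, against 9.36% and 9.16% of all genes with a UMI in both, with Spp1 (osteopontin) at -2.41 and Mrc1 at -1.66 among the lower and Il10 at 1.94 among the higher.

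**Figure D4:**
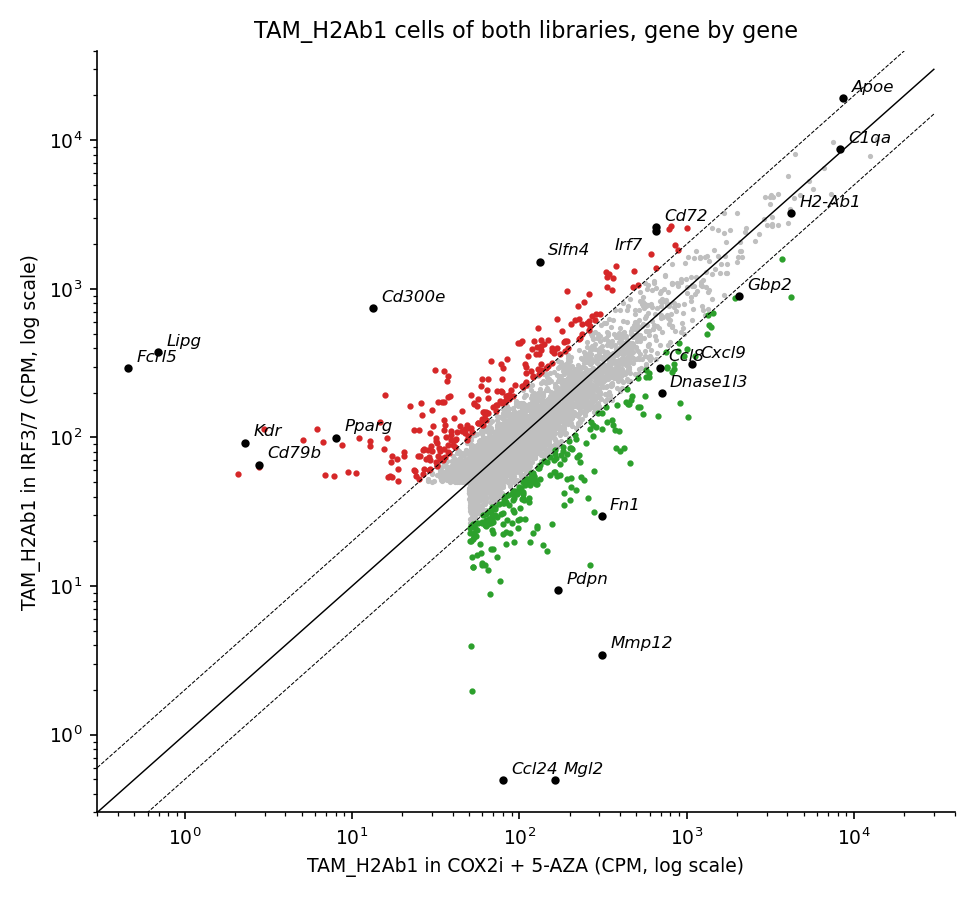
Each point is a gene, with its CPM in TAM_H2Ab1 cells of COX2i + 5-AZA on the x axis and of IRF3/7 on the y axis, both on log scales. Red points are at least 2-fold higher in IRF3/7 (245 with the named black points) and green points at least 2-fold lower (238), dashed lines mark 2-fold, and Fcrl5 and Lipg lie far to the upper left and Mgl2 and Ccl24 at the bottom.

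Type I-skewed genes were higher in IRF3/7 in 15 of 16 (median 1.66), and the remaining gene was Bst2, tetherin (0.97). Isg15 was at 1037 CPM in CTRL, 2513 in IRF3/7, 1619.6 in COX2i and 785 in COX2i + 5-AZA, a log2 ratio of 1.68 (1.62 to 1.74) between the libraries compared. Ifit3, an antiviral tetratricopeptide protein, was at 234 CPM in CTRL, 974 in IRF3/7, 361 in COX2i and 192 in COX2i + 5-AZA, a log2 ratio of 2.34 (2.23 to 2.46). Irf7 was at 2444 against 659 CPM (1.89, 1.82 to 1.96). Its cDNA was placed in tumour cells, so the level in macrophages is no check of the labels. Slfn4 stood at 1526 against 132 CPM (3.53, 3.40 to 3.66).

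Interferon-γ-skewed genes leaned the other way, with 6 of 17 lower in IRF3/7 and none higher (median -0.62). Cxcl9 was at 1263 CPM in CTRL, 312 in IRF3/7, 511 in COX2i and 1073 in COX2i + 5-AZA, a log2 ratio of -1.78 (-1.91 to -1.66) between the libraries compared. Gbp2 was at 4191 CPM in CTRL, 891 in IRF3/7, 2316 in COX2i and 2042 in COX2i + 5-AZA (-1.20, -1.27 to -1.12). Of 9 MHC class II genes 2 were lower (median -0.37), Ciita at 84.5 against 201 CPM (-1.25, -1.49 to -1.01) and H2-DMa at 256 against 594 CPM (-1.22, -1.36 to -1.08), while H2-Ab1 had a ratio of -0.37 (-0.41 to -0.33). The NK background of H2-Ab1 was higher in COX2i + 5-AZA, with a log2 ratio between the libraries of -2.03, and its part in these values was not tested. MHC class I genes were higher in 4 of 16 (median 0.16).

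LXR targets and lipid genes went both ways, with 5 of 19 higher in IRF3/7 and 6 lower (median 0.02). Pltp was at 1295 against 328 CPM (1.98, 1.89 to 2.07), Apoe at 25849.5 CPM in CTRL, 19214 in IRF3/7, 9108 in COX2i and 8623 in COX2i + 5-AZA (1.16, 1.14 to 1.18), and Pparg at 99.8 against 8.06 CPM (3.63, 3.11 to 4.19). The scavenger receptor gene Cd36 was lower (-3.69). C1qa was near equal (0.08, 0.05 to 0.11). With no filter, 11 of 18 cell cycle genes were at least 2-fold higher in IRF3/7 and none lower, Mki67 among the higher (1.58, 1.26 to 1.90). TAM_cycling held 1320 cells of COX2i + 5-AZA and 20 of IRF3/7, so the classes divided the cycling macrophages differently in the 2 libraries, and the part of this in the cell cycle ratios was not tested. Once cells with UMIs of 3 or more cell cycle genes were left out, a filter that uses these genes and was chosen after seeing the data, the Mki67 ratio was -0.82 and the median of the members compared -0.45.

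The same 2 libraries were compared within Infl_Mono, Monocyte_1, cDC2 and NK cells, to see which of these differences were also present in other classes. The type I-skewed list was higher in IRF3/7 in each, with medians of 1.66 in TAM_H2Ab1, 0.96 in Infl_Mono, 1.45 in Monocyte_1, 2.79 in cDC2 and 2.63 in NK cells. The MHC class II medians were -0.37 in TAM_H2Ab1 but 0.00, 0.07 and 0.09 in Infl_Mono, Monocyte_1 and cDC2, and -2.02 in NK cells. The interferon-γ-skewed medians were -0.62, -0.42 and -0.19 in TAM_H2Ab1, Infl_Mono and Monocyte_1, and of the opposite sign in cDC2 (0.10) and NK cells (0.15). No test of these differences between classes was possible with 1 library a group. Lipg was higher in IRF3/7 in the other classes too, with log2 ratios of 4.48 in Monocyte_1 and 6.40 in Infl_Mono (2 UMIs in COX2i + 5-AZA), and so was Il1rl1 (4.54 in Infl_Mono and 4.35 in Monocyte_1). For Cd300e the ratios were 1.81 and 1.27, smaller than 5.79 in the class, and 4.70 in cDC2. Mmp12 (-3.08 and -2.33) was lower in both monocyte classes. So were Mgl2 and Ccl24, by the share of thinned cells with a UMI. In IRF3/7 and COX2i + 5-AZA in turn, Mgl2 was read in 0% and 2.17% of Infl_Mono and 1.08% and 8.53% of Monocyte_1. It was at 4.96% and 57.1% in cDC2 and at 0% and 4.47% in NK cells. Ccl24 was read in 0.317% and 6.65% of Infl_Mono and in 0% and 7.69% of Monocyte_1. Fn1 had a ratio near 0 in Infl_Mono (0.09, 0.04 to 0.15) and of -3.50 in Monocyte_1, beside -3.39 in the class.

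**Figure D5:**
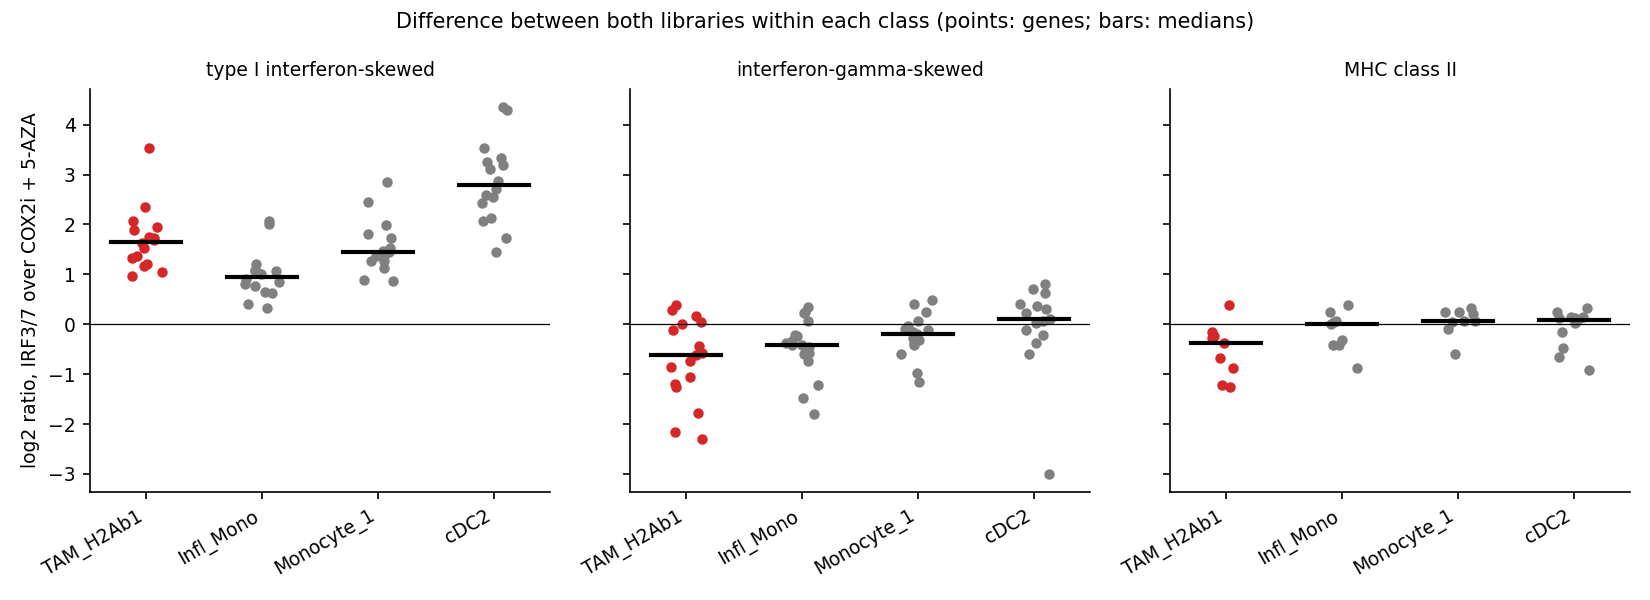
Points are genes of 3 lists, the y axis is the log2 ratio of IRF3/7 over COX2i + 5-AZA within the class named on the x axis, and bars are medians. The type I-skewed points lay above 0 in each of the 4 classes, and the MHC class II median was -0.37 in TAM_H2Ab1 and between 0.00 and 0.09 in the others.

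Finally the markers were counted cell by cell, with each cell thinned to 2000 UMIs and shallower cells left out (21 of the 385 in IRF3/7). A Fcrl5 UMI was found in 127 of 364 cells (34.9%, and 47.0% before thinning), against 0.577% of Infl_Mono and 0.489% of NK cells, whose median depth was 2674.5 UMIs before thinning. In COX2i + 5-AZA 0 of 416 cells had one, which allows up to 0.883%. Lipg was found in 27.5% of the class, 8.45% of cDC2 and 0.489% of NK cells. Cd300e was the most common of these, in 61.5% of cells against 4.56% of Infl_Mono and 1.22% of NK cells. Thus Fcrl5 and Lipg were read in a minority of the IRF3/7 cells and Cd300e in most.

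Cd72 was read in 31.6% of the 19 class cells in CTRL and 32.5% of 40 in COX2i, below cDC2 at 64.9% and 53.6%. It was read in 94.0% of the class in IRF3/7 and 62.3% in COX2i + 5-AZA. There NK cells were at 23.2% and 21.0% and cDC2 at 78.4% and 38.4%. H2-Ab1 was read in 66.5% of the class in IRF3/7 and 87.7% in COX2i + 5-AZA. NK cells were at 49 of 409 cells and 32.6% (median 2606 UMIs in COX2i + 5-AZA), so the higher share came with the higher background. TAM_C1q of COX2i + 5-AZA was at 37.5% for H2-Ab1, little above NK cells. Ccl8 was found in 10.7% of the class in IRF3/7 and 24.5% in COX2i + 5-AZA, with NK cells at 0 of 409 (up to 0.898%) and 3.09%. In IRF3/7 Dnase1l3 was read in 20.9% of the class, 19.9% of Monocyte_1, 20.1% of cDC2 and 10.2% of Infl_Mono, so its share did not set the class apart there. In COX2i + 5-AZA it was read in 51.7% of the class, 31.1% of Monocyte_1 and 23.3% of cDC2. Nr1h3 was read in 22.8% of the class and 11.3% of Monocyte_1 in IRF3/7, and in 12.3% and 6.06% in COX2i + 5-AZA. UMIs of 3 or more cell cycle genes were found in 23.6% of the class in IRF3/7, 0.692% of Infl_Mono and 1.61% of Monocyte_1. In COX2i + 5-AZA these were 14.7% of the class, 10.4% of TAM_C1q, 5.04% of Monocyte_1 and 93.2% of TAM_cycling.

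The 127 IRF3/7 cells with a Fcrl5 UMI were set beside the 237 without. Lipg was read in 41.7% and 19.8%, Cd300e in 85.0% and 48.9%, and Cd79b in 17.3% and 8.86%. Ccl8 showed the opposite order, in 2.36% of the cells with a Fcrl5 UMI and 15.2% of those without, and H2-Ab1 was at 58.3% and 70.9%. C1qa (92.1% and 91.1%) and Isg15 (89.8% and 92.4%) were alike. UMIs of 3 or more cell cycle genes were found in 33.1% and 18.6%. These are cells of 1 library and not replicates, so the shares describe that pool of tumours.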

How the data were processed

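Chromium Flex, which ligates probe pairs on RNA of fixed cells, was run on CD45+ cells fixed for 22 h, with 4 libraries told apart by probe barcode. The authors deposited a matrix of unnormalised UMI counts and a cell table, both used as deposited. The submitters' processing notes name Cell Ranger 7.1.0 and mm10. According to the study's methods, cells with few genes or a high mitochondrial or ribosomal fraction were removed, genes had to be found in each of several integrated experiments, ribosomal and mitochondrial genes were removed, and the classes came from clusters of that integration. The table held 12584 genes, 34447 cells and 17 classes, and the UMI total of every cell equalled the authors' total.

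UMIs were summed over the cells of a class and library and scaled to CPM, and differences are log2 ratios of CPM. A gene was compared when both sums together held 100 UMIs or more and the higher sum reached 50 CPM, and was counted past 2-fold. A gene could pass this filter through 1 group only. Lists of cell cycle, monocyte, neutrophil and suppressive macrophage genes were therefore counted over every member with a UMI in both sums, a choice made after seeing the data. Such counts were also given in 1 comparison each for the dendritic cell, lipid, chemokine, costimulation, dead-cell clearance, transcription factor and Fc receptor lists. Classes with fewer than 50 cells in a library were not compared. With 1 library per group no test was possible, and exact 95% intervals (Clopper-Pearson for shares, Poisson for sums, conditional for ratios) cover counting error only. Where no UMI was read, 3 UMIs served as the floor. For shares of cells with a UMI, cells were thinned to 2000 UMIs (seed 1). Named genes were the markers, the members of 26 lists and, per comparison, the 10 largest ratios in each direction (for the highest other class, the 10 largest). Members and lists were chosen with earlier results of these data known, and the lists overlap. List members such as Ly6c2, Mx1 and Psme2 were not analysed here, and some other genes are not reported here. No doublet caller is named in the methods and none was run, and 9 class cells above 3 times the median UMIs of the class were left out in an alternative. Other alternatives were scaling by median-of-ratios size factors, other filters on low counts, thinned cells, the mean of the cells' own CPM, deeper cells, and classes by likelihood. Genes of multigene families (Gbp2 and Gbp2b, Slfn4, the Ifit, Fcrl and Serpina3 families, H2 genes) may share probes with near-identical copies, which was not tested. Scripts were tested on simulated data and used Python 3.11.15, numpy 2.4.6, scipy 1.17.1, pandas 2.3.3 and matplotlib 3.10.9.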

Additional observations from a re-analysis of the deposited data

Results flagged for a closer look

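Gbp2b and Gpnmb differed from Monocyte_1 in opposite directions in the libraries with most TAM_H2Ab1 cells. The guanylate-binding protein gene Gbp2b had a log2 ratio of TAM_H2Ab1 over Monocyte_1 of -1.17 in IRF3/7 (81.1 against 182 CPM) and of 1.01 in COX2i + 5-AZA (398 against 197 CPM). Gpnmb, which encodes a lysosomal glycoprotein of lipid-laden macrophages, had one of -2.07 in IRF3/7 (with Monocyte_1 at 168 CPM) and of 1.61 in COX2i + 5-AZA (50.4 against 16.5 CPM). These differences between libraries were not tested, since each group has 1 library.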

How the results depend on the processing

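No paired analysis was possible because each group has 1 library, and for the same reason no library could be left out of a group. Of 104 values of shares and counts under an alternative, 86 stayed within 1.5 times the main count or within the counting interval of the share. Among monocytes and macrophages the share was 7.65% in IRF3/7 and 4.76% in COX2i + 5-AZA. Of all cells with more than 2000 genes the class made up 14.8% and 5.64% (6.08% and 4.18% of all cells), a ratio of 2.62 between them and of 63.8 for IRF3/7 over CTRL. With classes set by the highest likelihood it made up 11.5% in IRF3/7, 0.876% in COX2i and 7.61% in COX2i + 5-AZA of all cells. Against Infl_Mono, median-of-ratios scaling gave 250 genes higher in place of 406, and 515 lower in place of 384. Without a filter on low counts, genes past 2-fold higher and lower numbered 2416 and 875 against Infl_Mono, 1164 and 572 against Monocyte_1, 561 and 700 against TAM_C1q, and 794 and 1059 between libraries, by construction since many more genes enter. Of 756 ratios of genes and medians of lists, 145 moved and 2 turned direction. Those 2 were Mki67 (-0.82) and the cell cycle list (-0.45) between libraries without cells carrying 3 or more cell cycle genes, by construction, an alternative chosen after seeing the data that left out 107 cells of the class in IRF3/7 and 64 in COX2i + 5-AZA. Depth limits CTRL and COX2i most, where 3 UMIs in the class are 25.1 and 10.9 CPM.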

Other observations

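Of 16 costimulation, checkpoint and T cell cytokine genes compared, 5 were lower in TAM_H2Ab1 than in Infl_Mono of IRF3/7 and 1 higher (median -0.46). Over all genes 9.28% were higher and 8.78% lower. Of the 16, 3 reached 50 CPM in Infl_Mono only. With no filter, 5 of 19 were at least 2-fold lower and 4 higher, so the list went both ways. For all genes with a UMI in both these shares were 7.60% and 20.7%. Cd80 and Cd86, which encode the ligands of CD28, were at 27.2 against 186 CPM and 154 against 393 CPM, and Il15, a survival cytokine of T and NK cells, at 37.6 against 100.4 CPM. Against TAM_C1q of COX2i + 5-AZA 3 of 12 were higher and none lower (median 0.17), where 3.71% of all genes were higher and 2.30% lower, with Cd40 at 194 against 42.4 CPM and Cd274, the checkpoint ligand PD-L1, at 344 against 127 CPM. Genes of dead-cell clearance and nucleases were higher in 4 of 10 and lower in 1 against Monocyte_1 of COX2i + 5-AZA (median 0.23). Over all genes 2.84% were higher and 3.76% lower. The class marker Dnase1l3 was among the 4. With no filter, 5 of 14 were at least 2-fold higher and 2 lower, against 10.5% and 4.88% of all genes with a UMI in both. The clearance receptor gene Mertk was at 151 against 69.4 CPM and Stab1 at 205 against 53.1 CPM. Against Infl_Mono of IRF3/7, 3 of 9 were higher, Dnase1l3 among them, and 1 lower (median 0.50). There 9.28% of all genes were higher and 8.78% lower, and Axl was at 626 against 207 CPM.

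Among transcription factor genes 3 of 22 were higher and 5 lower than in Infl_Mono of IRF3/7 (median -0.39), against 9.28% and 8.78% of all genes. Of the 22, 3 reached 50 CPM in TAM_H2Ab1 only and 2 in Infl_Mono only. With no filter, 3 of 25 were at least 2-fold higher and 5 lower, against 20.7% and 7.60% of all genes with a UMI in both. Batf3 was at 75.1 against 14.1 CPM, Cebpb at 585 against 2576 CPM and Klf4 at 43.5 against 229.7 CPM. Between IRF3/7 and COX2i + 5-AZA 5 of 23 were higher and 3 lower in IRF3/7 (median 0.41), against 5.48% and 5.32% of all genes, with Bhlhe40 at 19.3 against 83.1 CPM. The macrophage factor gene Spi1 was at 1090.4 against 822 CPM. Against Infl_Mono of IRF3/7, 5 of 13 Fc and B cell-type receptor genes were higher and none was lower (median 0.70). Over all genes 9.28% were higher and 8.78% lower. Of the 13, 3 reached 50 CPM in TAM_H2Ab1 only. With no filter, 6 of 15 were at least 2-fold higher and none lower, against 20.7% and 7.60% of all genes with a UMI in both. The 5 past the filter were Fcgrt, which encodes the neonatal Fc receptor (162 against 21.3 CPM), Siglec1 (726 against 328 CPM), Fcrls, Fcrl5 and Cd72. Fcrl5 and Cd72 are markers that were fixed for the class. The Fc receptor genes Fcgr4 (0.75), Fcgr1 (-0.33) and Fcgr3 (-0.36) had log2 ratios within 2-fold. Interferon receptor and signalling genes were lower in 2 of 13 there (median -0.42) against 8.78% of all genes, Socs1, a feedback inhibitor of cytokine signalling, among them at 148 against 419.8 CPM. The receptor genes Ifngr1 (243 against 321 CPM) and Ifnar1 (131 against 186 CPM) were within 2-fold.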
